A study of Mus musculus with 4 samples.

Results

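In mouse embryos with neural tube defects (NTDs), the brain was compared with the spine, using 2 of the 4 RNA-seq libraries of a study of CD-1 embryos at embryonic day (E) 9.5. Compared were protein-coding genes averaging 1 or more FPKM, a read count scaled to gene length and library depth, over all 4 libraries. They number 11199 of the 17616 protein-coding genes, in a table of 28765 genes of every type. The other 2 libraries, control brain and control spine, were measured the same way and are set beside the NTD pair to show which regional differences were present in both pairs.

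Each group holds 1 library, named NTDsBrain1, NTDsSpine1, ConBrain1 and ConSpine1 by the submitters. The NTD embryos carried the treatment label folate deficiency (neural tube defects) and the control embryos the label control. The protocol, worded identically for all 4 libraries, put male and female CD-1 mice on a low-folate diet for over 8 weeks and produced NTDs by an intraperitoneal injection of methotrexate (MTX), a drug that blocks dihydrofolate reductase, at 1.5 mg/kg on E7.5. It does not say whether the control mothers received the diet or the injection, and control and NTD embryos therefore differ by the label and the presence of a defect as far as the labels tell. No genetic alteration is recorded. The tissue field reads embryo, and the cell type field reads brain cell or spine cell. The sources used here do not give where the embryos were divided, which defect each had or whether embryos were pooled. Both Xist and Y-linked genes were present in every library, with values given at the end.

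The neural tube is patterned from head to tail. Otx and forebrain homeobox genes mark the front, En, Pax and Wnt genes mark the boundary between midbrain and hindbrain, and Hox genes mark the hindbrain and spinal cord in an order that follows their position in the 4 Hox clusters. Retinoic acid made by the somites promotes Hox expression in the trunk, while Fgf and Wnt signals in the tail bud keep the axis growing. A neural tube defect is a failure of this tube to close, in the head, the spine or both, and lack of folate, which carries the single carbons used to make nucleotides and methyl groups, is a known risk for it.

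With 1 library per group no difference could be tested, and every comparison below describes these libraries. Depth was inferred from the FPKM values, as the read total by which each library was scaled. It came to 16470311 reads in NTD brain and 16605133 in NTD spine, against 16911677 and 16272101 in the control libraries. For 98.6% of the 28698 genes matched to an annotation, the FPKM values were whole numbers of reads divided by gene length and depth. Read counts were recovered for these genes, and a fold between 2 libraries is given with its exact 95% counting interval. These intervals cover counting error only, not the spread between embryos. Ratios written as log2 are of (FPKM + 1), which understates differences of low genes, while folds and percentages are of FPKM without the added 1.

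Both tissue labels were matched by their defining genes, though no library was free of the other region's transcripts. The forebrain gene Six3 stood at 4.63 FPKM in NTD brain, and the trunk gene Hoxb9 at 52.9 FPKM in NTD spine. In the control spine the 15 compared forebrain genes had a median of 13.2% of their control brain level, and in NTD spine 7.55% of their NTD brain level. Of these genes 3 had no read in NTD spine and were set at 3 reads. In the other direction, the 12 Hox genes of paralogue groups 6 to 9 had a median of 6.17% of their spine level in NTD brain and 0.447% in control brain. In control brain 6 of the 12 had no read and were likewise set at 3 reads. Heart muscle genes in NTD brain reached a median of 42.7% of the spine level, against 6.65% in the controls. In whole tissue, fewer cells of a type and less RNA per cell cannot be told apart, and tissue content, the line of dissection and the defect itself cannot be told apart with these 4 libraries.

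In NTD embryos 87 genes were at least 2-fold higher in brain than in spine, 0.777% of those compared, and 192 were at least 2-fold lower, 1.71%. Brain patterning genes headed the first group, and Hox genes made up 34 of the second and none of the first. The control pair had 80 genes higher (0.714%) and 234 lower (2.09%). Most genes lay close to equality, with a median log2 ratio of 0.004, an SD over genes of 0.381 and 93.4% of genes within 1.5-fold. The counting interval excluded equality for 84 of the 87 higher genes and 188 of the 192 lower ones, and 2 genes in each direction had no interval because their reads could not be recovered.

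The 2 pairs shared no library, and their ratios ran broadly together, with a Pearson correlation across the 11199 genes of 0.829 and a Spearman correlation of 0.588. Genes are not independent replicates, and the 4 libraries share gene lengths and counting. Of the 80 genes higher in control brain, 64 (80.0%) were also at least 2-fold higher in NTD brain, where they made up 73.6% of the 87. Of the 234 genes lower in control brain, 168 (71.8%) were also lower in NTD brain, 87.5% of the 192. None of the 11199 genes was at least 2-fold higher in one pair and at least 2-fold lower in the other at these settings.

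The pairs differed in the size of the trunk-side ratios, unevenly across the lists described below. The heart sarcomere median was -1.15 in the NTD pair and -3.42 in the controls, and the endoderm median -2.18 and -3.91. Medians were close for tail bud (-1.55 and -1.52), somite (-1.53 and -1.66) and limb and lateral plate genes (-0.97 and -1.10). The 234 genes lower in control brain had a median log2 ratio of -1.83 there and -1.30 in the NTD pair, and 190 of them had the smaller ratio in the NTD pair. Genes picked on one pair tend to have a smaller ratio in another, and the part of this in the medians was not tested. The 192 genes picked in the NTD pair had medians of -1.54 in the NTD pair and -1.89 in the controls. On the brain side the pairs were closer. The 80 genes higher in control brain had medians of 1.37 in the controls and 1.30 in the NTD pair, 48 of them larger in the NTD pair, and the 87 picked in the NTD pair had 1.34 there and 1.26 in the controls.

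**Figure D1:**
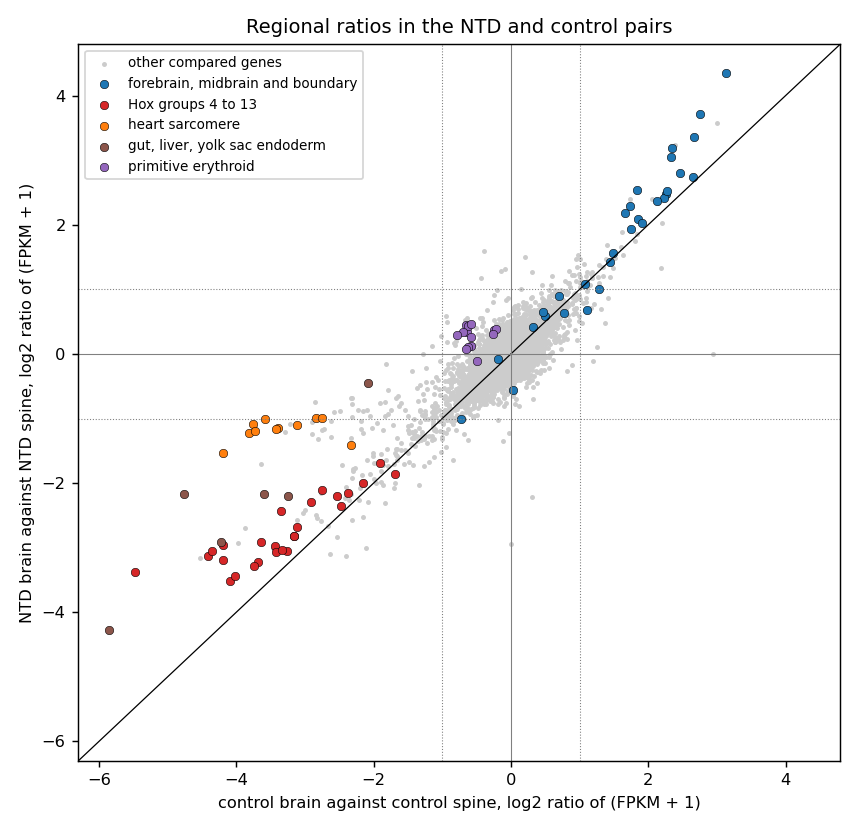
Each point is 1 of the 11199 compared genes, with its log2 ratio of brain to spine in control embryos on the x axis and in NTD embryos on the y axis, the diagonal marking equal ratios and dotted lines marking 2-fold. Brain patterning genes (blue) lie mostly above the diagonal at the upper right, trunk Hox genes (red) and heart muscle genes (orange) above it at the lower left, and primitive erythroid genes (purple) at the upper left apart from 1 just below 0.

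Forebrain transcription factors were mostly higher in NTD brain, several of them with almost no reads in NTD spine. Of 19 listed genes 15 were compared, 13 had at least 2-fold more RNA in NTD brain and 0 at least 2-fold less, with a median log2 ratio of 2.04 against 0.004 for all compared genes and 1.75 for the same list in the controls. Over all compared genes 0.777% were at least 2-fold higher in NTD brain and 1.71% at least 2-fold lower. Genes that are near 0 outside one region can only be compared because that region lifts their mean. The count of 13 therefore describes the list and supports nothing further, and the same holds for the counts of the other regional lists below. The 4 listed genes below the filter, Rax, Hesx1, Nkx2-4 and Vax2, had NTD log2 ratios of 0.84, 0.76, 0.68 and 1.12.

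Nr2e1, a nuclear receptor of forebrain and retinal progenitors, measured 10.5 FPKM in control brain, 0.811 in control spine, 9.39 in NTD brain and 0.0162 in NTD spine. The last value is 1 read against 574 in NTD brain, a ratio of 579 whose interval begins at 103. Fezf1, a zinc finger repressor of the rostral forebrain, measured 8.10 FPKM in control brain, 0.791 in control spine and 8.14 in NTD brain, and had no read in NTD spine. With the empty library set at 3 reads, it was 109-fold higher in NTD brain, and the counting interval of the actual reads began at 87.8. The 2 brain libraries were close for both genes, and the 2 spine libraries were not.

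Six3, a homeobox gene needed for the rostral forebrain and eye field, stood at 5.08 and 0.271 FPKM in control brain and spine and at 4.63 and 0.0111 in the NTD tissues, the last from 1 read. Six6, its optic paralogue, and Vax1, which marks the optic stalk and ventral forebrain, had no read in NTD spine, with 3.26 and 3.10 FPKM in NTD brain. Fezf2, the paralogue of Fezf1, was 103-fold higher in NTD brain (28.2 to 859), from 2 reads in NTD spine, and 8.84-fold in control brain (5.62 to 14.6). Nkx2-1, of the hypothalamus and ventral telencephalon, exceeded its NTD spine level 12.9-fold in NTD brain (8.70 to 19.8), and Dmrta2, a cortical patterning factor, 13.2-fold (8.80 to 20.7).

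Cortical genes with wider expression differed less. Emx2, which patterns the dorsal telencephalon, was 2.72-fold higher in NTD brain (2.06 to 3.61), Emx1 2.39-fold (1.46 to 4.03) and Lhx2, a regulator of cortex and eye, 3.52-fold (3.06 to 4.07). The list's exception was Foxd1, a marker of ventral diencephalon and temporal retina that is also made in trunk mesenchyme. It measured 6.32 and 6.16 FPKM in control brain and spine and 5.25 and 8.16 in the NTD tissues. Its NTD brain level was 0.644 times the spine level (0.570 to 0.727), whereas the control pair was near equality at 1.02.

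Otx2, which specifies forebrain and midbrain and had the highest log2 ratio among named genes of at least 5 FPKM in one NTD library, read 27.1 FPKM in control brain, 2.21 in control spine, 28.7 in NTD brain and 0.457 in NTD spine. It was 62.9-fold higher (44.4 to 92.2) in NTD brain and 12.3-fold in control brain (10.4 to 14.6). The brain libraries were nearly equal and the difference lay in the spine libraries. The paralogue Otx1 was alike, 58.9-fold higher (34.2 to 111) in NTD brain and 8.98-fold in control brain, with 1.02 FPKM in control spine and 0.144 in NTD spine.

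Genes of the midbrain and its boundary with the hindbrain split into those restricted to brain and those shared with the spine. All 15 of 15 listed genes were compared. In NTD brain 8 were at least 2-fold up, against 0.777% of all compared genes. By as much, 1 was down, against 1.71%. The 15 genes had a median log2 ratio of 2.19 (1.66 in the controls). Over the 6 of them with a mean of 5 FPKM or more the median was 0.79 in the NTD pair and 0.90 in the controls, so the order of the pairs turned. En2, an engrailed factor of the boundary region, was at 17.7 FPKM in control brain, 1.79 in control spine, 13.5 in NTD brain and 0.102 in NTD spine, 132-fold higher in NTD brain (60.3 to 360.1). Its partner En1, which is also expressed in limb and trunk, was 9.26-fold higher (6.45 to 13.7). Pax5, a boundary factor, was 182-fold higher (70.7 to 669) from 4 reads in NTD spine, and 9.24-fold in the controls. Cnpy1, an Fgf pathway gene of the boundary, was 43.5-fold higher (26.2 to 78.2), the midbrain homeobox gene Dmbx1 82.3-fold (37.6 to 225) and Tal2, a factor of midbrain inhibitory neurons, 27.9-fold (16.5 to 51.6).

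The secreted signals of the boundary are used again in the tail and dorsal neural tube, and their ratios were small. Fgf8 was 1.66-fold higher in NTD brain (1.33 to 2.09), Fgf17 1.75-fold (1.38 to 2.22) and Wnt1 2.13-fold (1.71 to 2.67). Pax2 and Pax8, which also mark the kidney primordium, were 1.57-fold and 2.36-fold higher. Lmx1b, a regulator of Wnt1 at the boundary and of the dorsal limb, was near equality at 0.932 (0.812 to 1.07). Gbx2, which sets the hindbrain side of the boundary and is also expressed in the tail, was 2.35-fold higher in spine (1.86 to 2.98).

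Across these head genes, at the filter of 1 FPKM, the NTD pair mostly had the larger ratios, and the spine libraries differed more than the brains. Median spine level as a share of brain level was 7.55% for the forebrain list and 10.8% for the midbrain list in the NTD pair, against 13.2% and 21.7% in the controls. The 3 genes outside both lists that were among the 12 highest were alike in this. Aldh1a3, the retinoic acid synthase of the eye and nasal region, was 40.6-fold higher (28.1 to 60.96) in NTD brain and 15.7-fold in control brain. Trh, the precursor of thyrotropin-releasing hormone, was 24.2-fold higher (13.9 to 45.96) and Lhx5, a homeobox gene of the forebrain and of neurons along the axis, 15.9-fold (9.85 to 27.1), against 7.56-fold and 4.85-fold in the controls.

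**Figure D2:**
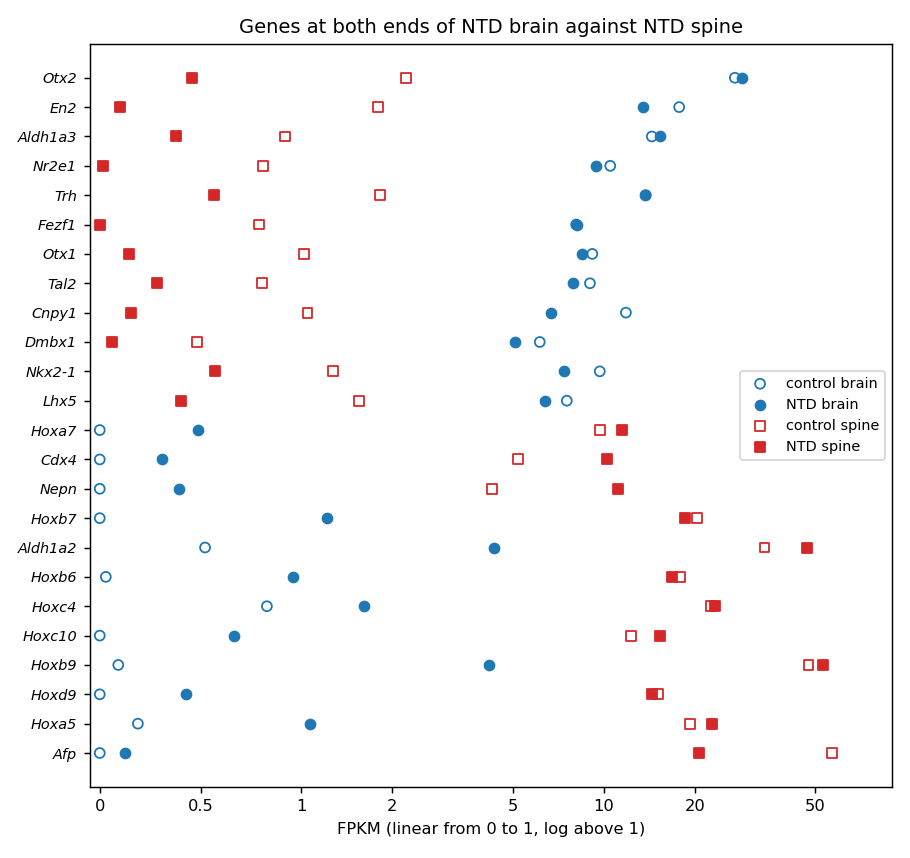
FPKM in each of the 4 libraries for the 12 genes with the highest and the 12 with the lowest log2 ratio of NTD brain to NTD spine among named genes of at least 5 FPKM in one of them (x axis linear to 1, logarithmic above). For the upper 12 genes the NTD spine (filled squares) lies left of the control spine (open squares), and for the lower 12 the NTD brain (filled circles) lies right of the control brain (open circles).

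Hindbrain genes showed little regional difference. Of 9 listed genes 7 were compared, and 1 was at least 2-fold higher in NTD brain, against 0.777% of all compared genes. That gene was Cyp26c1, a retinoic acid-degrading enzyme of the head, at 21.7 and 7.27 FPKM in NTD brain and spine and 19.8 and 6.68 in the controls, 2.98-fold and 2.97-fold higher. Epha4, a marker of hindbrain segments, stood at 0.850 (0.777 to 0.931) times the spine level in NTD brain, against 1.07 in control brain. The median log2 ratio was -0.10 in the NTD pair and 0.22 in the controls. Its sign in the NTD pair changed with the settings, from -0.18 to 0.34. Egr2, which marks 2 hindbrain segments, was below the filter.

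Every Hox gene that was compared, 34 in all, was at least 2-fold lower in NTD brain than in NTD spine, against 1.71% of all compared genes. Most of them could be compared only because the spine lifts their mean, so this count describes the set and supports nothing further. The front of the Hox series, paralogue groups 1 to 3, is expressed in the hindbrain as well as the trunk. Its 8 genes had NTD log2 ratios from -2.27 to -1.20, with a median of -2.06. Hoxb1, a gene of the fourth hindbrain segment that is also active in the tail bud, measured 3.23 FPKM in control brain, 9.69 in control spine, 2.17 in NTD brain and 11.9 in NTD spine. Its brain level was 18.3% of the spine level in the NTD pair and 33.4% in the controls. Hoxb2 was at 1.12 and 2.82 FPKM in the controls and 1.04 and 5.39 in the NTD tissues, or 39.7% and 19.4%. For both genes the NTD spine was the higher of the spines and the NTD brain the lower of the brains. Hoxa2, the gene of the second segment and the pharyngeal arches, was alike in both pairs, at 38.5% and 41.2%.

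In groups 4 to 9 the NTD brain held more Hox RNA than the control brain in relation to its spine. The 7 genes of groups 4 and 5 had a median brain level of 6.91% of the spine level in the NTD pair and 1.83% in the controls. Hoxa5, the next lowest after Afp among those genes, measured 0.189 FPKM in control brain, 19.3 in control spine, 1.07 in NTD brain and 22.7 in NTD spine, 21.3-fold higher in NTD spine than NTD brain (15.01 to 31.2). Hoxc4 was 14.5-fold higher in NTD spine (11.3 to 18.8) and 27.2-fold in control spine (19.5 to 39.1). Hoxb4 was 12.4-fold higher (9.79 to 15.8) against 18.5-fold (13.6 to 25.9).

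Groups 6 to 9, mostly of the thoracic region, showed the widest gap between the pairs of the 4 sets of Hox groups. Hoxb9, the most abundant of them per length, measured 0.0919 FPKM in control brain, 47.5 in control spine, 4.18 in NTD brain and 52.9 in NTD spine. Those were 4, 1989, 177 and 2262 reads. Hoxb9 was 12.7-fold higher in NTD spine than NTD brain (10.9 to 14.9) and 517-fold in the controls (202 to 1899). Hoxb7, Hoxb8, Hoxa7, Hoxc9, Hoxd8 and Hoxd9 had no read in control brain and 1.22, 1.54, 0.486, 0.375, 0.266 and 0.426 FPKM in NTD brain. Their spine levels in the NTD pair were 18.5, 20.04, 11.5, 8.70, 4.48 and 14.4 FPKM. All 12 genes of groups 6 to 9 had a brain level between 2.95% and 7.89% of the spine level in the NTD pair. In the controls, with empty libraries set at 3 reads, it lay between 0.115% and 1.12%. For 6 of the 12 there was no read in control brain, so their values rest on that floor. The genes are not replicates, and the gap between the ranges was not tested.

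The most posterior Hox genes were lower in both tissues. Of 12 genes in groups 10 to 13, 7 were compared. Hoxc10, of the lumbar region, was at 0.668 FPKM in NTD brain and 15.3 in NTD spine, 22.9-fold higher in spine (14.8 to 37.3), and had no read in control brain against 12.3 FPKM in control spine. Hoxd13, the last gene of its cluster, had 3 reads in NTD brain and 3.76 FPKM in NTD spine. Hoxa11 had no read in either brain. The 5 uncompared genes, Hoxa13, Hoxb13, Hoxc12, Hoxc13 and Hoxd12, had no read in NTD brain, so their share there was not detectable at this depth. The sources used here do not give the strand used in counting, and reads of overlapping or antisense transcripts within the Hox clusters could not be told apart from those of the named genes.

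**Figure D3:**
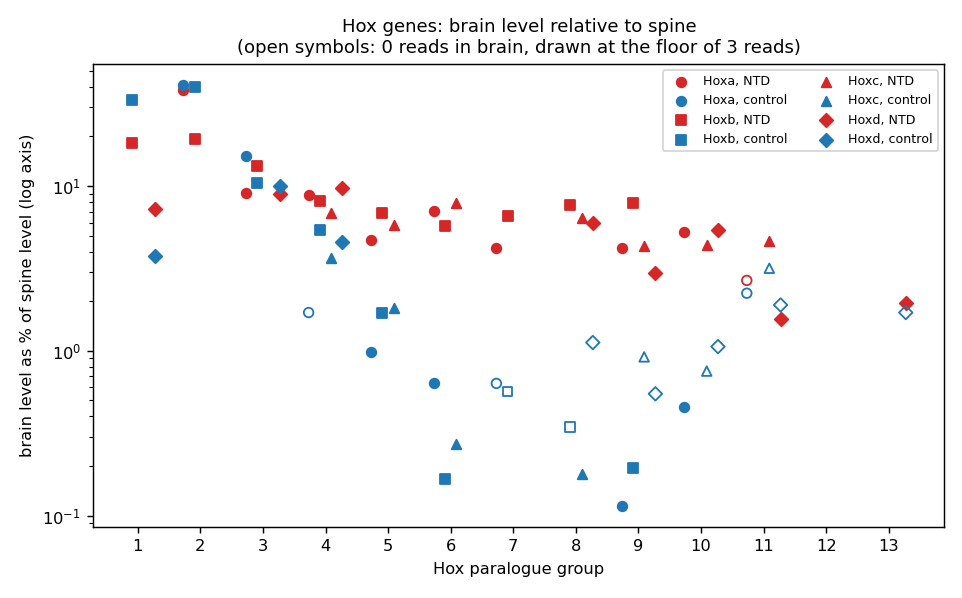
Brain level as a percentage of spine level (log axis) for compared Hox genes reported here, by paralogue group from head to tail, in NTD (red) and control (blue) embryos, with open symbols where the brain library had 0 reads and was set at 3. The NTD points level off between 2.95% and 7.89% for groups 6 to 9, while the control points there lie between 0.115% and 1.12%.

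Genes of the tail bud, where the axis elongates, were mostly lower in NTD brain. Of 15 listed genes 14 were compared. In NTD brain 8 were 2-fold or more below spine, against 1.71% of all compared genes, and 0 above it by as much. The medians were -1.55 in the NTD pair and -1.52 in the controls. At a mean of 5 FPKM or more 5 genes were left, with medians of -0.47 and -0.53. Cdx4, a caudal factor upstream of Hox genes, measured 10.2 FPKM in NTD spine and 5.20 in control spine, and 0.309 and 0 in the brains. It was 33.1-fold higher in NTD spine than NTD brain (17.8 to 69.7). Msgn1, which commits cells to presomitic mesoderm, was at 9.43 FPKM in NTD spine (96 reads) and 3.31 in control spine (33 reads), with 3 reads and none in the brains. T, the notochord and mesoderm factor, stood at 1.10 and 11.7 FPKM in NTD brain and spine and 0.307 and 7.91 in the controls. Sp5 was slightly on the brain side, and Wnt3a, shared with the dorsal neural tube, was at 1.55 times the spine level in NTD brain (1.22 to 1.96) and 2.44 in control brain (1.97 to 3.03). Cdx2, Cdx4, Msgn1, Tbx6, T and Evx1 were each higher in the NTD spine library than in the control spine library. They are only part of the list, and Wnt3a was lower, at 2.62 FPKM in NTD spine and 2.74 in control spine. Over the 15 listed genes the summed level was 108 FPKM in NTD spine and 87.3 in control spine, and this difference was not tested.

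The retinoic acid pathway was divided by enzyme. Of 18 listed genes 16 were compared, with a median of -0.32 (-0.17 in the controls). In NTD brain 2 were higher by 2-fold or more and 2 lower by as much. Over all compared genes those shares were 0.777% and 1.71%. Aldh1a2, the synthase of somites and trunk mesoderm, measured 0.522 FPKM in control brain, 33.98 in control spine, 4.34 in NTD brain and 46.8 in NTD spine. It was 10.8-fold higher in NTD spine (9.16 to 12.7) and 65.1-fold in control spine (41.9 to 107). Both NTD tissues were above their controls, the brain by the larger fold and the spine by more FPKM. Aldh1a3 and Cyp26c1, described above, were on the brain side. The receptor gene Rarb, itself induced by retinoic acid, was 3.48-fold higher in NTD spine (2.74 to 4.47) and 2.37-fold in control spine (1.88 to 3.01). The degrading enzyme of the tail, Cyp26a1, was alike in both pairs at 50.4% and 52.9% of the spine level. Crabp1, a binding protein abundant in the neural tube and crest, measured 625 and 373 FPKM in the NTD tissues.

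Trunk mesoderm genes were low in NTD brain, though some less so than in control brain. Of 15 somite genes 13 were compared and 8 were at least 2-fold lower in NTD brain, against 1.71% of all compared genes. The medians were -1.53 in the NTD pair and -1.66 in the controls. Meox1, a factor of somites, stood at 3.42 FPKM in control brain, 63.6 in control spine, 11.1 in NTD brain and 77.3 in NTD spine. Its brain level was 14.4% of the spine level in the NTD pair and 5.38% in the controls. Tcf15, which makes the somite epithelial, was 10.6-fold higher in NTD spine (7.75 to 14.7) and 18.9-fold in control spine (12.2 to 30.9). Pax1 and Uncx, of the sclerotome that forms vertebrae, were nearly alike in the pairs, at 16.7% and 16.3% of the spine level in NTD brain and 14.3% and 15.01% in control brain. Myog, which drives skeletal muscle differentiation, rested on 21 reads in the NTD brain library and 3 in the control one. It was 6.23-fold higher in NTD spine (3.92 to 10.4) and 37.1-fold in control spine (12.3 to 183).

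Limb and lateral plate genes were mostly lower in NTD brain. Of 11 compared genes, all that were listed, 5 were at least 2-fold lower in NTD brain, against 1.71% of all compared genes. The medians were -0.97 in the NTD pair and -1.10 in the controls. The 5 genes with a mean of 5 FPKM or more had medians of -0.63 and -0.41, which turned the order of the pairs. Foxf1, of gut and lateral plate mesoderm, was 8.81-fold higher in NTD spine (6.77 to 11.7), Wnt2, of the heart and lung field, 10.9-fold (7.45 to 16.6) and Tbx4, of the hindlimb, 16.3-fold (8.91 to 33.3). Prrx1 and Tbx2, which are also made in head mesenchyme, were near equality at 0.885 and 1.18.

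Heart muscle genes kept a spine-ward direction in NTD embryos but with a far smaller ratio than in the controls. Of 12 listed genes 11 were compared, and 9 were below spine by 2-fold or more in NTD brain, against 1.71% of all compared genes. The other 2, Myh7 and Tnni1, lay just under that threshold at -0.99 and -0.99. In the controls all 11 were at least 2-fold lower, against 2.09% of all compared genes. The median log2 ratio was -1.15 in the NTD pair and -3.42 in the controls. Actc1, cardiac actin, measured 20.8 FPKM in control brain, 307 in control spine, 90.02 in NTD brain and 211 in NTD spine. Myl7, an atrial myosin light chain, measured 18.5, 259, 75.3 and 173 FPKM in that order. For both, NTD brain was the higher of the brains and NTD spine the lower of the spines. Actc1 was 2.34-fold higher in NTD spine than NTD brain (2.23 to 2.46) and 14.8-fold in the controls (13.6 to 16.1). Myh6, the alpha myosin heavy chain, was 3.08-fold higher (2.88 to 3.28) against 29.2-fold (25.1 to 34.01).

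Summed over the 12 genes, heart muscle RNA came to 55.3 FPKM in control brain, 829.9 in control spine, 233 in NTD brain and 546 in NTD spine. The NTD brain level of the 11 compared genes lay between 21.6% (Nppa, atrial natriuretic peptide) and 48.1% (Tnnc1, cardiac troponin C) of the spine level. The control range was 3.43% to 9.93%. Nppa had no read in control brain. The transcription factors of the heart differed less between the pairs, with medians of -1.71 and -2.31. In NTD brain 7 of 9 were at least 2-fold lower, against 1.71% of all compared genes. Nkx2-5, of cardiac progenitors and muscle, was at 41.96% of the spine level in NTD brain and 10.5% in control brain. Hand1, which is also made in lateral plate and extra-embryonic mesoderm, was at 13.5% and 8.48%, and Gata4, of heart and gut endoderm, at 15.5% and 5.02%. The part of heart tissue in the regional ratios of other genes was not tested.

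Genes of endoderm and yolk sac, mostly secreted proteins, were low in both brains, and the 2 spine libraries differed. Of 14 listed genes 6 were compared and 5 were at least 2-fold lower in NTD brain, against 1.71% of all compared genes. The medians were -2.18 in the NTD pair and -3.91 in the controls. Of the 6 genes, 2 had no read in NTD brain and 3 none in control brain. With 1 FPKM added, the ratio of such a gene is set mostly by its spine level. Afp, alpha-fetoprotein and the lowest log2 ratio among named genes of at least 5 FPKM in one NTD library, measured 56.7 FPKM in control spine, 20.7 in NTD spine and 0.126 in NTD brain (7 reads), with no read in control brain. It was 164-fold higher in NTD spine than NTD brain (79.4 to 409). Apoa1, an apolipoprotein, had 575 reads in control spine and 72 in NTD spine, with 2 and 0 in the brains. With the empty library set at 3 reads, Apoa1 was 23.8-fold lower in NTD brain than in NTD spine, and the counting interval of the actual reads began at 18.9. Ttr, transthyretin, had 340 and 136 reads in the spines and 0 and 1 in the brains. Rbp4, retinol-binding protein, was at 14.6% of the spine level in NTD brain and 7.16% in control brain. The list summed to 3.44, 157, 3.18 and 51.5 FPKM in control brain, control spine, NTD brain and NTD spine.

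**Figure D4:**
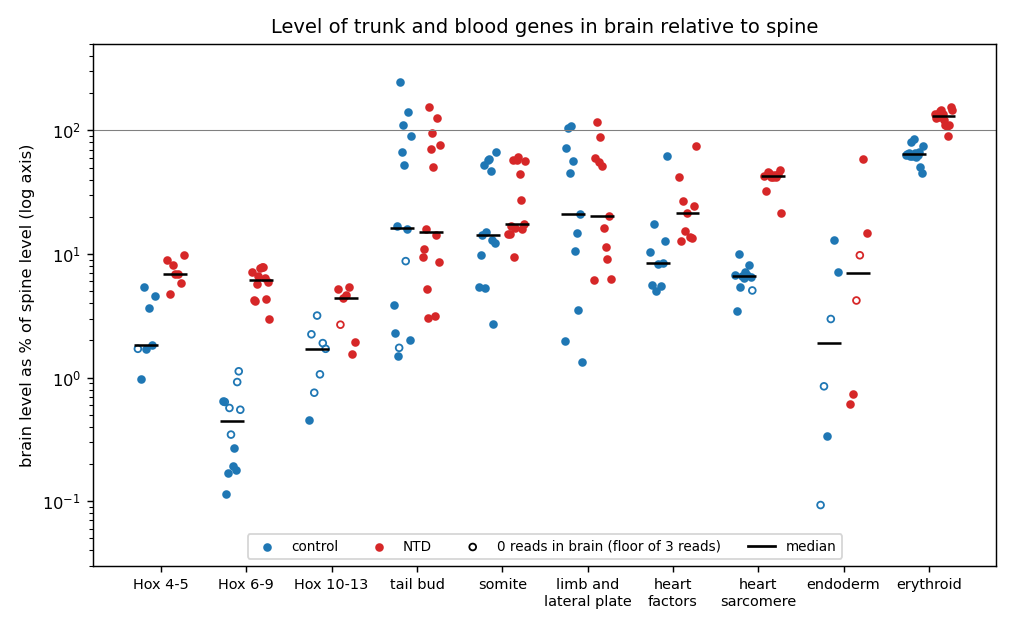
Brain level as a percentage of spine level (log axis) for each compared gene of 10 lists, control in blue and NTD in red, with black bars at the list medians and open circles where the brain had 0 reads and was set at 3. The heart sarcomere median lies at 6.65% in the controls and 42.7% in the NTD pair, and the erythroid median at 63.9% and 131%, on either side of 100.

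Genes of primitive red cells, the first blood cells, made in the yolk sac, pointed in opposite directions in the 2 pairs. Of 16 listed genes 14 were compared, and 13 of them were above 0 in the NTD pair, where 50.8% of all compared genes were. In the controls 0 of 14 were above 0, against 52.0% of all genes. None reached 2-fold in either pair. The median log2 ratio was 0.32 in the NTD pair and -0.60 in the controls, and this difference between pairs was not tested. Hba-x, the embryonic zeta globin, measured 1069 FPKM in control brain, 1682 in control spine, 1152 in NTD brain and 843 in NTD spine. Hbb-bh1, an embryonic beta-like globin, measured 1519, 2332, 1783 and 1315 FPKM in that order. For both the brains were close, the control spine was the highest library and the NTD spine the lowest. Some globin genes have near-identical copies, so reads may be split among them in a way the sources used here do not state.

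The non-globin genes gave the same signs apart from Tal1. Alas2, the first enzyme of heme synthesis in red cells, was at 13.5 FPKM in NTD brain and 11.1 in NTD spine, 1.22-fold higher in brain (1.07 to 1.39), and at 0.651 times the spine level in control brain (0.581 to 0.729). Klf1, a red cell transcription factor, was 1.47-fold higher (1.13 to 1.93) in NTD brain and at 0.622 in control brain (0.484 to 0.797). Gata1, its partner, was 1.44-fold higher (1.07 to 1.95) and at 0.802 (0.624 to 1.03), with the control interval including 1. Epor and Rhd, the erythropoietin receptor and a red cell membrane protein, were 1.11-fold and 1.54-fold higher in NTD brain with intervals that included 1. Tal1, which is shared with endothelium, was the 1 gene below 0 at -0.11. Over the list the summed level was 4512 FPKM in control brain, 7035 in control spine, 4849 in NTD brain and 3672 in NTD spine. The endothelial list, by contrast, had medians of -0.24 and -0.14, and none of its 12 genes differed by 2-fold in the NTD pair.

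Because 13 of the 14 erythroid genes had one sign in the NTD pair, promoters are shown for 3 of them, chosen after their values were seen. GATA1, the red cell factor, is known to bind the letters AGATAA. These letters, on either strand of the 250 bases before and 50 after the start site in the RefSeq promoter table (GRCm38.p6), were found in 5 of the 10 erythroid genes with a promoter there and in 518 of 8864 compared genes, 5.84%. The 5 were Alas2, Epor, Rhd, Tal1 and Epb42. A match is a run of letters and not a measured binding site. The sequences below are the 250 bases before the RefSeq start, 5′ to 3′ on the gene's strand, with AGATAA or its reverse complement TTATCT in capitals.
Alas2, chrX:150547167-150547416, plus strand: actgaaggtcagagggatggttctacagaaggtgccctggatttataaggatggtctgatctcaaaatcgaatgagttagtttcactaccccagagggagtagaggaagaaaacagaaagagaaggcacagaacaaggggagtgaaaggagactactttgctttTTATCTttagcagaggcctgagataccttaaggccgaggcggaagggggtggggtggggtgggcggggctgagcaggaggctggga
Epor, chr9:21963577-21963826, minus strand: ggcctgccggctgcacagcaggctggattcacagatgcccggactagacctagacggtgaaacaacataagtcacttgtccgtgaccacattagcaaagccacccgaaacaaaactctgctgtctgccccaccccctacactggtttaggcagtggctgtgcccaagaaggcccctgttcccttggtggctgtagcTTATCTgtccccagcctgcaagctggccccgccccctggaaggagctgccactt
Rhd, chr4:134864286-134864535, plus strand: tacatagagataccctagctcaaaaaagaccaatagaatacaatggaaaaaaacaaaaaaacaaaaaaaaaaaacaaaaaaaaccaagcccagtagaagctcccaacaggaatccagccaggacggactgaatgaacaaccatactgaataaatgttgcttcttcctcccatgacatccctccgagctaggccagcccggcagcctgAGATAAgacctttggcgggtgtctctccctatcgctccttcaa
In Alas2 and Epor the match is on the strand opposite to the gene, and in Rhd on its own strand. For comparison, TTTATG, a run of letters bound by posterior Hox and Cdx proteins, occurred on either strand in 5.67% of all 8864 promoters. It occurred in 15.0% of the 140 promoters found for the 192 genes lower in NTD brain and in 4.84% of the 62 found for the higher genes. By list, it occurred in 5 of the 20 compared Hox genes with a promoter in the table (25.0%), 4 of 11 heart sarcomere genes (36.4%) and 1 of 5 endoderm genes. It also occurred in 1 of 13 forebrain, 1 of 11 midbrain and 1 of 10 erythroid genes. TAATCC, the letters bound by Otx2, occurred in 5.05% of all promoters, 6.45% of the 62 and 6.43% of the 140. None of the 13 forebrain and 11 midbrain genes with a promoter had it. Differences between these sets were not tested, and the shares support nothing further.

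Neural identity genes were modestly higher in NTD brain, as in control brain. Among the 13 progenitor genes the median log2 ratio was 0.45 (0.54 in the controls). In NTD brain 2 of them were at least 2-fold higher, against 0.777% of all compared genes. Those were Fabp7, a fatty acid carrier of radial progenitors, at 26.96 and 9.73 FPKM in NTD brain and spine, and Sox21, a progenitor factor, at 10.4 and 3.47. Sox2, the common marker of neural progenitors, was 1.92-fold higher (1.80 to 2.06) and 1.76-fold in the controls. Notch1 and its ligand Dll1, which are also used in somites, were 1.55-fold and 1.37-fold higher in NTD spine.

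Genes of differentiating neurons had similar median ratios in the pairs on lower summed levels in the NTD tissues. The ratio was larger in the NTD pair for 13 of the 16 structural genes and smaller for 3. Of these 3, Stmn3 differed most, with log2 ratios of 0.71 in the NTD pair and 1.17 in the controls. The 16 structural genes had medians of 0.50 and 0.42, and summed to 179 and 100.3 FPKM in NTD brain and spine against 260.4 and 168 in the controls. Tubb3, neuronal beta-tubulin, measured 96.9 FPKM in control brain, 47.97 in control spine, 63.8 in NTD brain and 22.3 in NTD spine. It was 2.86-fold higher (2.62 to 3.12) in NTD brain and 2.02-fold in control brain (1.90 to 2.15). Nefm, a neurofilament, was 1.94-fold higher (1.71 to 2.20) and 1.51-fold (1.39 to 1.64). Cntn2, of commissural and motor axons, was the list's spine-ward gene, 1.51-fold higher in NTD spine (1.20 to 1.90).

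Among 8 proneural factors, which start neuron formation, the median was 0.62 (0.46). Neurod1 was 2.75-fold higher in NTD brain (2.14 to 3.57), while Neurog2 was 1.87-fold higher in NTD spine (1.51 to 2.33). Of 11 subtype factors 6 were compared. Isl1, of motor and sensory neurons, was 1.57-fold higher in NTD spine (1.37 to 1.80). Pou4f1, of sensory and midbrain neurons, was 2.49-fold higher in NTD brain (1.99 to 3.13).

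Along the back-to-belly axis of the neural tube, some ventral genes were less brain-ward in the NTD pair than in the controls. The 10 compared ventral genes had medians of -0.11 in the NTD pair and 0.18 in the controls, and the control sign changed with the settings, reaching -0.18. Shh, the floor plate signal, was at 12.8 FPKM in control brain, 7.90 in control spine, 8.68 in NTD brain and 7.34 in NTD spine. It was 1.18-fold higher (1.02 to 1.37) in NTD brain and 1.62-fold in control brain (1.42 to 1.85). Foxa2, of floor plate and notochord, was at 0.923 (0.722 to 1.18) and 1.46 (1.17 to 1.84) times the spine level. For both, control brain was the highest of the 4 libraries. Nkx6-2 and Nkx2-9, ventral progenitor factors, were higher in both brains, 3.98-fold and 2.76-fold in the NTD pair.

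The 13 dorsal genes had medians of 0.50 and 0.59, and none differed by 2-fold in the NTD pair. The sign of the NTD median changed with the settings, reaching -0.19 among genes of at least 5 FPKM. Pax3, whose loss causes NTDs in mice, was 1.42-fold higher in NTD spine (1.28 to 1.59) and 1.19-fold in control spine (1.07 to 1.32). Zic2, another such gene, was 1.64-fold higher (1.50 to 1.80) in NTD brain and 1.77-fold in control brain. Msx1, a dorsal target of Bmp signals, was 1.32-fold higher in NTD spine (1.19 to 1.46) and near equality in the controls at 0.995.

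Neural crest markers had little regional direction, with medians of -0.03 and -0.12 over 8 genes. Sox10, the factor of migrating crest, stood at 5.23 and 5.19 FPKM in NTD brain and spine. Head mesenchyme genes were mostly on the brain side, with medians of 0.71 and 0.67. In NTD brain 3 of 12 were at least 2-fold higher, against 0.777% of all compared genes. Dlx5, of the lower jaw arch and otic region, was 2.50-fold higher (1.98 to 3.16) in NTD brain and 1.63-fold in control brain (1.32 to 2.03), and Alx4, of the frontonasal region, 2.31-fold and 2.36-fold.

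Genes tied to folate use and to tube closure differed little between the NTD regions. Of 20 folate and one-carbon genes 18 were compared, none at 2-fold, with medians of 0.09 and 0.01. Folr1, the folate receptor, had the largest ratio, with 1.67 FPKM in control brain, 1.77 in control spine, 1.77 in NTD brain and 0.524 in NTD spine. Without the added 1 it was 3.38-fold higher (2.02 to 5.88) in NTD brain and near equality in control brain at 0.948 (0.662 to 1.36). The NTD spine was the only library that stood apart, on 20 reads against 65, 66 and 67. Gldc, of the glycine cleavage system in mitochondria, exceeded its NTD spine level 1.52-fold in NTD brain (1.39 to 1.65), against 1.64-fold in the controls.

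Of 14 planar cell polarity genes, which orient the cell movements that narrow the neural plate, 12 were compared. In NTD brain 1 was at least 2-fold lower, against 1.71% of all compared genes. This was Prickle1, 2.18-fold higher in NTD spine (1.95 to 2.45) and 1.91-fold in control spine (1.68 to 2.17). Vangl2, the core membrane protein, was at 16.6 and 16.5 FPKM in NTD brain and spine and at 21.6 and 17.5 in the controls. Ptk7, a receptor of the pathway, was 1.66-fold higher in NTD spine (1.58 to 1.75).

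Immediate early genes, which are induced within minutes of a stimulus, had little regional direction in the NTD pair, while Fosb, Fos and Egr1 stood above the controls in both tissues. The 12 compared genes had a median of -0.10 in the NTD pair (-0.30 in the controls), and none differed by 2-fold in the NTD pair. Fosb stood at 13.4 and 12.7 FPKM in NTD brain and spine and at 0.0379 and 0.522 in the controls. Fos stood at 11.4 and 12.4 against 0.302 and 1.67, and Egr1 at 8.33 and 8.61 against 0.752 and 1.08. Handling of the tissue is not described, and its part in these levels was not tested.

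Imprinted growth genes were lower in NTD brain to a like degree as in control brain, with medians of -0.74 and -0.75 over 9 genes, Mest alone being on the brain side in both pairs. Igf2, a fetal growth factor, was 4.05-fold higher in NTD spine (3.55 to 4.64) and 3.35-fold in control spine (2.90 to 3.87). Surface ectoderm genes had medians of -0.23 and -0.22, and none of 11 differed by 2-fold in the NTD pair. No macrophage gene of 9 listed passed the filter, and those genes summed to 2.63 and 1.08 FPKM in NTD brain and spine. The 11 housekeeping genes had medians of 0.11 and 0.01.

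**Figure D5:**
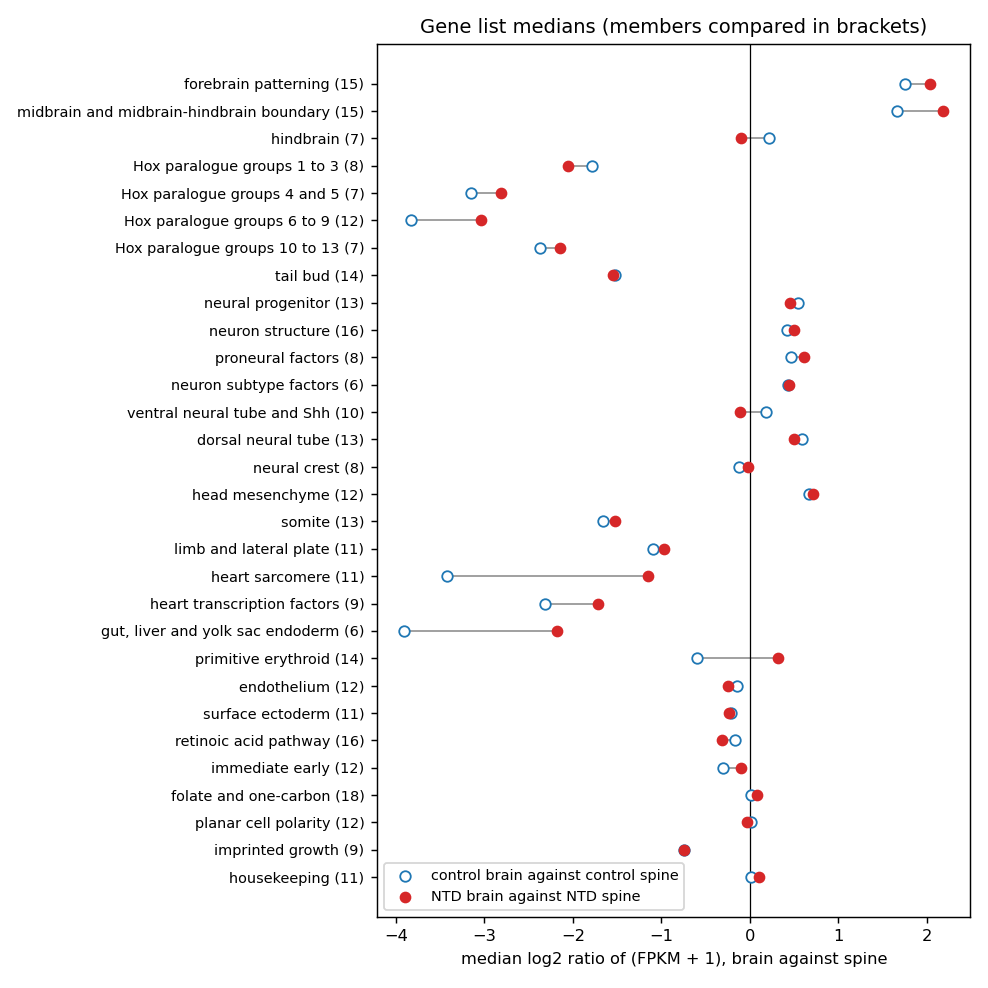
Median log2 ratio of brain to spine over the compared genes of 30 lists, in control (open blue) and NTD (filled red) embryos, joined by a line. Heart sarcomere (-3.42 and -1.15), endoderm (-3.91 and -2.18) and primitive erythroid genes (-0.60 and 0.32) have the longest lines, and most neural lists have short ones. Of the 6 compared endoderm genes, 3 had no read in control brain and 2 none in NTD brain.

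The difference between the 2 regional ratios, NTD minus control, was at least 2-fold upwards for 78 genes (0.696%) and downwards for 10 (0.0893%). Of the 8 named genes with the largest upward difference, 7 were heart muscle genes, Myl2, Myh6, Actc1, Tnnc1, Myl7, Myl4 and Myl3, and the remaining one was Apoa1. Apoa1 had 2 reads in control brain and none in NTD brain. Its read-based change of ratio was 1.66 times with an interval that included 1 (0.0791 to 34.99). For Myl2, a ventricular myosin light chain, the ratio of brain to spine was 8.32 times as large in the NTD pair (6.49 to 10.7), and for Myl7 6.06 times (5.10 to 7.20).

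Of the 8 named genes with the largest downward difference, Msgn1, Hoxb2, Hoxb1 and Nepn were on the spine side in both pairs. For Msgn1 and Nepn the downward direction holds with 1 FPKM added and turned upwards with 0.1 FPKM added, at 0.51 and 0.94 on the log2 scale. Their read-based changes of ratio were 2.55 times (0.128 to 50.6) and 10.6 times (0.627 to 179.9), with 0 reads of both in control brain. Nepn, a secreted leucine-rich repeat protein, measured 4.27 FPKM in control spine, 11.2 in NTD spine, 0.395 in NTD brain and 0 in control brain, and was 28.3-fold higher in NTD spine than NTD brain (16.3 to 53.7). For Hoxb2 the ratio of brain to spine in the NTD pair was 0.490 times that of the controls (0.329 to 0.728), and for Hoxb1 0.549 times (0.403 to 0.747). Lypd8, at the head of the list, came from 1 library, with 145 reads in control brain and none in the other 3. Oard1, Ftl1-ps1 and Rbfa each went from a brain-side ratio in the controls to a spine-side ratio in the NTD pair, of which Oard1 measured 17.1, 12.4, 15.4 and 19.1 FPKM in control brain, control spine, NTD brain and NTD spine. Ftl1-ps1 carries the name of a ferritin pseudogene, and its reads may belong to a near-identical copy.

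Genes past 2-fold in only one pair mostly had the same sign in the other. In the NTD pair alone, 23 genes were at least 2-fold higher in brain, of which 19 were also above 0 in the controls, and 24 were lower, of which 22 were also below 0. Of these, the list members included Dlx5 and Tubb3 on the higher side, and Hoxb2, Rarb, Foxc2, Prickle1 and Gbx2 on the lower side. In the control pair alone, 16 were higher and 66 lower. Wnt3a, Fgf17, Six2, Stmn3 and Sox1 were the list members among the 16, and Tnni1, Myh7, Nkx2-5, Lhx9, Krt8, Myf5, Apom and Fos among the 66. Foxc2, a factor of somite and head mesoderm, had NTD and control log2 ratios of -1.07 and -0.98. Sox1, a progenitor factor, had 0.98 and 1.11.

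Gene length ran with the NTD ratio and not with the control ratio. Across the compared genes the Spearman correlation of the log2 ratio with exon length was -0.223 in the NTD pair and 0.005 in the controls. The shortest of 10 length classes had a median log2 ratio of 0.088 in the NTD pair and the longest class -0.09. The corresponding control medians were 0.005 and -0.005. With GC content the correlations were alike, -0.109 and -0.139 over the 11194 genes with a value. Centring the ratios within groups of like GC content and length left 88 genes higher and 192 lower in NTD brain, and the part of length in any single gene was not tested.

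The genes nearest the filter show what it left out. Just inside were Nxph3, Ptrhd1 and Col12a1 with means of 1.00039, 1.00099 and 1.00189 FPKM. Just outside were Fam221a, Nipal3 and 1700102P08Rik with means of 0.999444, 0.998611 and 0.99847 FPKM.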

How the data were processed

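RNA-seq was measured in 4 libraries of total RNA, 1 per group, and grouping followed the sample titles. The submitters' processing notes name HISAT2 2.0.1, a read aligner, and the mouse build mm10. The sources used here do not give the counting program, its annotation or its strand setting. The authors deposited FPKM values per gene, with no read counts. Each value times the union exon length of GENCODE M21 was a whole multiple of 1 read, within a tolerance of 0.01, for 28298 of the 28698 genes matched by ID (98.6%). The size of 1 read in these units gave each library's total, and the recovered reads made up 98.0% to 98.2% of it.

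Ratios were log2((FPKM + 1)/(FPKM + 1)) over protein-coding genes averaging 1 FPKM or more, and a gene was counted at 2-fold. Read ratios had exact 95% Clopper-Pearson intervals conditional on the summed reads of the 2 libraries, scaled by library totals, and ratios of ratios had Wald intervals with 0.5 added to each count. A library with 0 reads was set at 3 reads. Of the 11199 compared genes 198 had no recovered reads and so no interval. No test was run, since each group has 1 library. The interval routine was tested on simulated data.

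The text names the 12 highest and 12 lowest ratios in the NTD pair with at least 5 FPKM in one of its libraries, the 8 largest differences between pairs each way with at least 5 FPKM in any library, and members of 32 lists, passing over gene models without a name. The pair, the genes and the lists were chosen with earlier results of these data known. Some list members that were compared are not reported here by name, and they remain in the counts and medians. Promoters came from RefSeq. Alternatives were other pseudocounts, filters, scalings, thresholds and gene types, a counting-interval requirement and a GC and length adjustment. Python 3.11.15, numpy 2.4.6, pandas 2.3.3, scipy 1.17.1 and matplotlib 3.10.9 were used.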

Additional observations from a re-analysis of the deposited data

Results flagged for a closer look

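The primitive erythroid genes were picked out because their median log2 ratio of brain to spine had opposite signs in the 2 pairs, 0.32 in NTD embryos and -0.60 in controls. The sign held for 13 of the 14 compared genes in the NTD pair and for all 14 in the controls. The NTD median ran from 0.185 to 0.388 and the control median from -0.645 to -0.352 over the alternative settings. With 1 library per group the difference between the pairs was not tested.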

How the results depend on the processing

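No paired analysis was possible because the groups share only replicate number 1. Without replicates, leaving out a library was not possible either. In NTD brain 87 genes were at least 2-fold higher and 192 lower, and 232 of the genes regional in the controls (73.9%) kept their call. With a pseudocount of 0.1 FPKM these became 184 higher, 300 lower and 356 kept. With 5 FPKM they became 19, 62 and 68, with 57.6% kept. With a mean of at least 5 FPKM they were 31, 79 and 91, with 80.5% kept. A 1.5-fold threshold gave 298, 443 and 538, and a 4-fold threshold 22, 61 and 70, with 57.4% kept. Without a filter 65.7% were kept. Over all gene types 132 genes were higher, and 63.4% of regional genes were kept. Looser or stricter rules of this kind admit other numbers of genes by their construction. Rescaling libraries to the same sum moved the NTD median to -0.091 and gave 78 higher and 223 lower. Rescaling by the median ratio gave 87 and 192, a counting-interval requirement 84 and 188, and GC and length adjustment 88 and 192. Of 177 list medians recomputed, 137 moved by no more than the half-width of the counting interval of a typical member and 40 moved further. Requiring a mean of 5 FPKM or more, the proneural median moved from 0.62 to 0.93, the retinoic acid median from -0.32 to -0.13 and the dorsal median from 0.50 to -0.19. The dorsal, folate, hindbrain, housekeeping and planar polarity lists changed sign under some setting. Limits were the 1 library per group, unknown pooling and dissection, and wide counting intervals wherever a library held 0 to 3 reads.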

Other observations

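The following genes of muscle, outside the lists, lay 2-fold or more below spine in control brain and are given here after their values were seen, so they stand for no group. Hspb7, a small heat shock protein of heart and muscle, measured 0.534 FPKM in control brain, 8.17 in control spine, 1.80 in NTD brain and 4.22 in NTD spine. Cryab, a crystallin chaperone of muscle and lens, measured 2.40, 15.9, 6.12 and 11.1 FPKM in that order, and Nppb, the natriuretic peptide of the ventricle, 0.379, 5.90, 3.58 and 6.32. Mybpc3, cardiac myosin-binding protein, was lower in both brains, at 1.97, 26.7, 6.91 and 15.8 FPKM. In these 4 genes the NTD brain was above the control brain. Mylpf, a fast skeletal myosin light chain, was alike in both pairs, at 1.84, 6.31, 1.77 and 5.67 FPKM, as were Myh3 and Tnnt3, with log2 ratios of -1.48 and -1.14 in the NTD pair and -1.67 and -1.33 in the controls.

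Matrix genes outside the lists, also chosen after their values were seen, are given as single values. Col1a1, the main chain of fibrillar collagen, measured 12.03 FPKM in control brain, 81.2 in control spine, 5.88 in NTD brain and 42.4 in NTD spine, lower in both NTD tissues, with a log2 ratio of -2.66 in each pair. Postn, periostin of matrix-forming mesenchyme, measured 2.64, 25.1, 2.40 and 18.1 FPKM. Fn1, fibronectin, reached 2-fold in the NTD pair only, at 42.6, 77.3, 42.0 and 90.6 FPKM.

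On the brain side, Wnt8b and Wnt7b, Wnt ligands of the forebrain, measured 3.84 and 5.26 FPKM in NTD brain and 0.190 and 0.947 in NTD spine. Sst, somatostatin, measured 17.1 FPKM in control brain, 5.46 in control spine, 8.25 in NTD brain and 2.67 in NTD spine. Psmd10, a proteasome assembly factor, was at least 2-fold higher in NTD brain alone, at 16.6 FPKM against 6.07 in NTD spine, 9.02 in control brain and 9.62 in control spine.

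Both X-linked Xist and Y-linked genes were present in every library, so each held RNA of both sexes. Xist measured 18.3 FPKM in control brain, 14.2 in control spine, 15.2 in NTD brain and 14.1 in NTD spine, and Ddx3y 3.42, 5.61, 4.25 and 5.61. Over the 4 Y-linked genes listed the median log2 difference of brain from spine was -0.10 in the NTD pair and -0.40 in the controls.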
